A study of Rattus norvegicus with 15 samples.

Results

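The change in the response to a cocaine-seeking test between early and late withdrawal was measured in the rat nucleus accumbens, as a difference of differences. For each gene the effect of an extinction test after 30 days of withdrawal was taken first. The effect of the same test after 1 day of withdrawal was then subtracted from it, as (30C minus 30W) minus (1C minus 1W) on the log2 scale. This interaction is positive where the level of tested minus untested animals was greater, or less negative, at 30 days than at 1 day. It can be positive without a rise after the test. Its members are the 12 arrays titled 30C, 30W, 1C and 1W, of 15 arrays in the series, and it was computed for the 11778 genes that passed a filter on low values, of 14497 genes with 1 gene symbol on the platform.

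All 4 groups were male Sprague-Dawley rats of 250-350 g that had self-administered cocaine through a jugular catheter, at 0.75 mg/kg per infusion, for 6 hours a day over 10 days, with a light cue above the active lever. The 30C rats were withdrawn for 30 days and then underwent an extinction test of cue-induced cocaine seeking, and the 30W rats were withdrawn for 30 days without the test. The 1C rats were withdrawn for 1 day and then tested, and the 1W rats were withdrawn for 1 day without the test. Each group had 3 arrays. Whether 1 array stands for 1 rat or for a pool, how long the test lasted and when tissue was taken are not stated in the labels, so p-values measure the spread between these arrays only. Rats of both lengths of withdrawal share the cocaine history, and no saline group enters the contrast.

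Cue-induced cocaine seeking is known to grow over weeks of withdrawal, which is called incubation of craving, and the nucleus accumbens is one of the regions in which it has been studied. Spiny projection neurons make up most of its neurons. When neurons fire strongly, calcium and cAMP signals switch on immediate early genes within minutes, among them transcription factors of the Fos, Egr and Nr4a families and effector genes such as Arc. Many of them carry cAMP response elements in their promoters, to which CREB binds.

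The 12 arrays were alike, with pairwise correlations between 0.993 and 0.996 over all probe sets. The 12 spiny neuron markers checked, Drd1, Drd2, Ppp1r1b and Penk among them, lay between the 80.8th and the 99.8th percentile of each array. The arrays differed in cortical projection neuron markers, whose list score was 0.53 on 30C replicate 1 and lay between -0.32 and 0.18 on the other 11 arrays. A list score is the mean, over the list's genes, of the gene's log2 level minus that gene's average level. On 30C replicate 1 the spiny neuron score was -0.40. The 25th percentile of the arrays was 5.53 to 5.59 at 30 days and 5.48 to 5.51 at 1 day, and its own interaction was -0.01. In tissue arrays, fewer cells of a type and less RNA per cell cannot be told apart.

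No gene passed an adjusted p of 0.05 in the interaction (limma with Benjamini-Hochberg adjustment over 11778 genes), which is 0% of the genes tested. The smallest adjusted p was 0.999. At an unadjusted p under 0.05 there were 202 genes with a positive interaction (1.72%) and 176 with a negative one (1.49%), 378 in all, against 589 that a flat spread of p-values would give. The median interaction over all genes was 0.01 and 95% of genes lay between -0.23 and 0.23. The median standard error was 0.0958, so that the median 95% confidence interval reached 0.21 to either side of the estimate. That interval lay wholly within 0.5 of 0, on the log2 scale, for 10601 genes (90.0%), and within 1 of 0 for 11630 genes (98.7%). The data thus bound the interaction of most genes, but for the 32 immediate early transcription factors tested the interval reached 0.36 to either side at the median, and only 16 of them had an interval within 0.5 of 0.

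**Figure D1:**
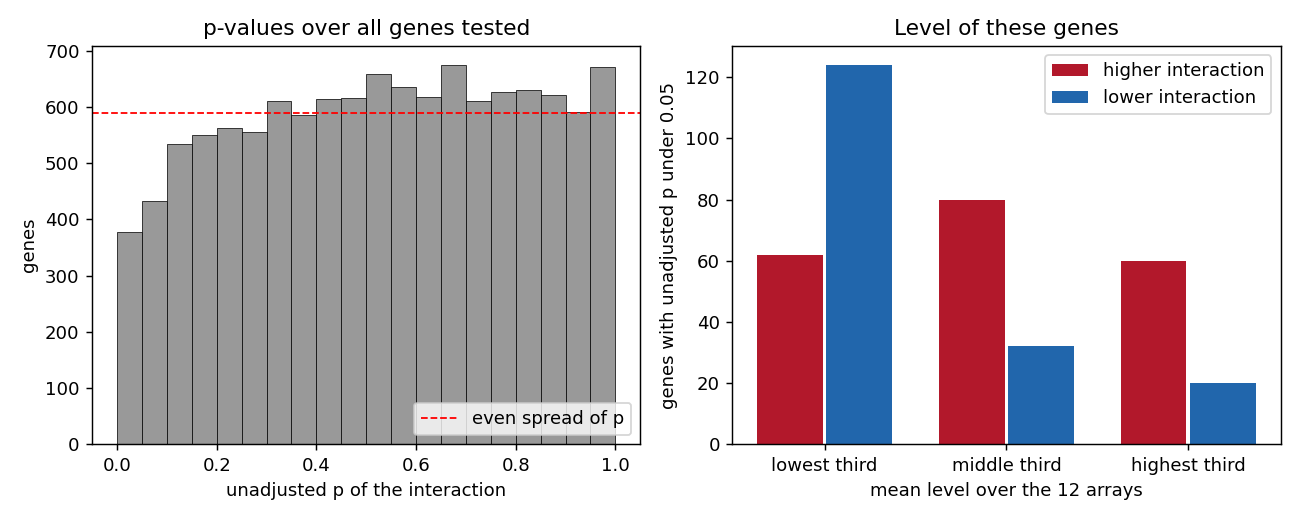
Left, number of genes by unadjusted p of the interaction in bins of 0.05, with the count that an even spread would give as a dashed line; the lowest bin holds 378 genes, below the line. Right, number of genes with an unadjusted p under 0.05 by mean log2 level over the 12 arrays, in 3 classes of 3926 genes, positive interaction in red and negative in blue; 124 of the 176 negative genes lie in the lowest class.

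The genes at an unadjusted p under 0.05 differed in level between the directions. Of the 202 genes with a positive interaction, 62 were among the 3926 genes of lowest level (30.7%) and 60 among the 3926 of highest level. Of the 176 with a negative interaction, 124 were in the lowest class (70.5%) and 20 in the highest. The filter on low values also kept 208 olfactory receptor genes, at a median level of 6.07. Whether genes at such levels are expressed in this tissue was not tested. The median interaction was -0.01 in the lowest class and 0.02 in each of the other classes. In most of these genes the effects of the test had opposite signs at the 2 times, as the contrast favours, in 186 of 202 positive genes and 158 of 176 negative genes. Over all 11778 genes the 2 test effects, which share no array, had the same sign in 6143 (52.2%) and a correlation across genes of 0.12, given as a description since genes are not independent.

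Neither test effect alone gave a gene past the adjusted threshold. At 30 days the smallest adjusted p was 0.0799, for Csrp2, a muscle LIM protein family member, and 261 genes were higher (2.22%) and 206 lower after the test at an unadjusted p under 0.05. At 1 day the smallest adjusted p was 0.876, and 243 genes were higher (2.06%) and 246 lower (2.09%). Both effects had an unadjusted p under 0.05 in 53 genes, with 20 higher at both times, 13 lower at both and 20 of opposite sign. The genes higher at both times include Fos, Egr2, Nr4a3, Fosl2, Sik1 and Plat.

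**Figure D2:**
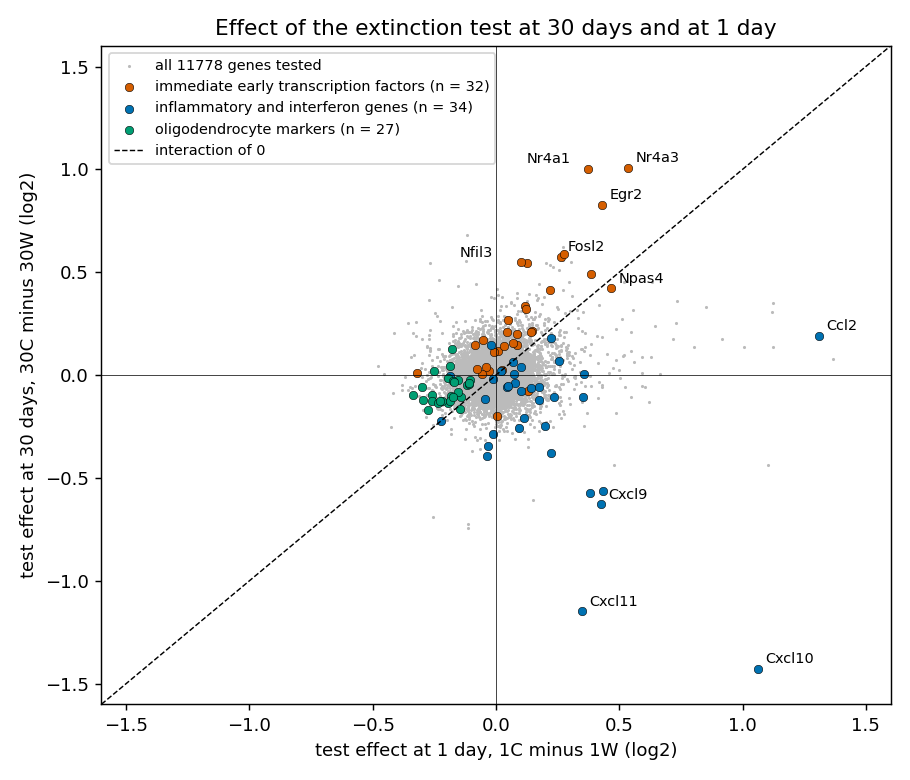
Effect of the extinction test on the log2 scale at 30 days (30C minus 30W, vertical) against 1 day (1C minus 1W, horizontal) for the 11778 genes tested, each a point, with 3 gene lists in colour. A gene on the dashed line has an interaction of 0; Nr4a1 lies above it at 1.00 and 0.37, and Cxcl10 below it at -1.43 and 1.06.

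Immediate early transcription factors were mostly on the positive side of the interaction. Of 35 genes listed, 32 were tested, and 29 of them lay above 0, against 6356 of all 11778 genes (54.0%). Their median interaction was 0.12, against 0.01 over all genes. The list's median effect of the test was 0.20 at 30 days and 0.08 at 1 day. At 30 days 13 of the 32 were higher at an unadjusted p under 0.05 (2.22% of all genes were) and 1 lower (206 of all 11778 were). At 1 day 4 were higher (2.06% of all genes were) and none lower (2.09% were). In the interaction itself 6 of the 32 had an unadjusted p under 0.05, all with a positive sign, where 1.72% of all genes did. That count was between 2 (without 1W replicate 2 or without 1C replicate 1) and 8 (without 1W replicate 3) when 1 array was left out, and 3 without 30W replicate 2, 1C replicate 3 or 30C replicate 1. None had an adjusted p under 0.05.

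Nr4a1 encodes an orphan nuclear receptor induced by neuronal activity. It was at 10.32, 10.01 and 10.03 log2 units in 30C, against 9.42, 8.77 and 9.17 in 30W, and at 9.03, 9.36 and 9.63 in 1C, against 8.78, 9.28 and 8.84 in 1W. The 30C arrays lay above all 9 others, and the 1C and 1W arrays overlapped. The test effect was 1.00 at 30 days and 0.37 at 1 day, an interaction of 0.63 with a standard error of 0.27 and a 95% interval of 0.03 to 1.22 (limma, unadjusted p = 0.0399). The related receptor Nr4a3 had an interaction of 0.47 (standard error 0.25, unadjusted p = 0.0852 by limma), from 1.01 at 30 days and 0.54 at 1 day. For Nr4a2, the remaining member of the family, the estimate was 0.33 with a 95% interval of -1.81 to 2.47, and its 30C arrays alone spread over 11.31, 10.20 and 8.28.

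Nfil3, a basic leucine zipper repressor that binds D-box elements, had the smallest unadjusted interaction p of the list. It was at 8.14, 7.87 and 7.87 in 30C, against 7.39, 7.43 and 7.41 in 30W, and at 7.36, 7.59 and 7.38 in 1C, against 7.30, 7.40 and 7.32 in 1W. Every 30C array was above every array of the other groups, and the 30W, 1C and 1W arrays overlapped. The test effect was 0.55 at 30 days and 0.10 at 1 day, and the interaction was 0.45 (standard error 0.11, 95% interval 0.20 to 0.69, limma unadjusted p = 0.00208).

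Egr4, a zinc finger factor of the Egr family, was at 8.60, 8.50 and 8.30 in 30C, against 8.04, 7.78 and 7.94 in 30W. It was at 8.02, 8.13 and 8.04 in 1C, against 7.77, 8.13 and 7.91 in 1W, so that only the 30-day groups were apart. Its interaction was 0.42 (standard error 0.14, limma unadjusted p = 0.0128). Egr2 had an interaction of 0.40 (standard error 0.20) and Egr1 of 0.19 (standard error 0.17), each with an interval that included 0. Fosl2, a partner of Jun proteins, was within 9.50 to 9.52 in the 3 arrays of 30C, against 8.94, 8.86 and 9.0 in 30W. In 1C it was at 9.13, 9.36 and 9.07, against 8.89, 9.11 and 8.78 in 1W. The 30C arrays were again above the other 9, while 1C and 1W overlapped, and the interaction was 0.31 (standard error 0.13, limma unadjusted p = 0.0285).

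The intervals of the interactions of Fos and Npas4 included 0. Fos, the founding AP-1 gene, was at 8.37, 7.89 and 7.83 in 30C, against 7.61, 7.35 and 7.65 in 30W, and at 7.32, 7.81 and 7.60 in 1C, against 7.03, 7.26 and 7.28 in 1W. The 30C arrays were above the other 9, and the 1C arrays were above every 1W array. It was higher after the test at both times, by 0.49 at 30 days and 0.39 at 1 day, each at an unadjusted p under 0.05 that did not pass adjustment. Its interaction was 0.11, with a 95% interval of -0.37 to 0.58, and -0.07 without 30C replicate 1. Npas4, an activity-dependent factor of inhibitory synapse formation, had an interaction of -0.05 with an interval of -1.23 to 1.14, and its untested 30W arrays were at 9.78, 8.42 and 9.66. Ier2 and Klf2, named here because they complete the 6 genes, had interactions of 0.23 and 0.22.

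**Figure D3:**
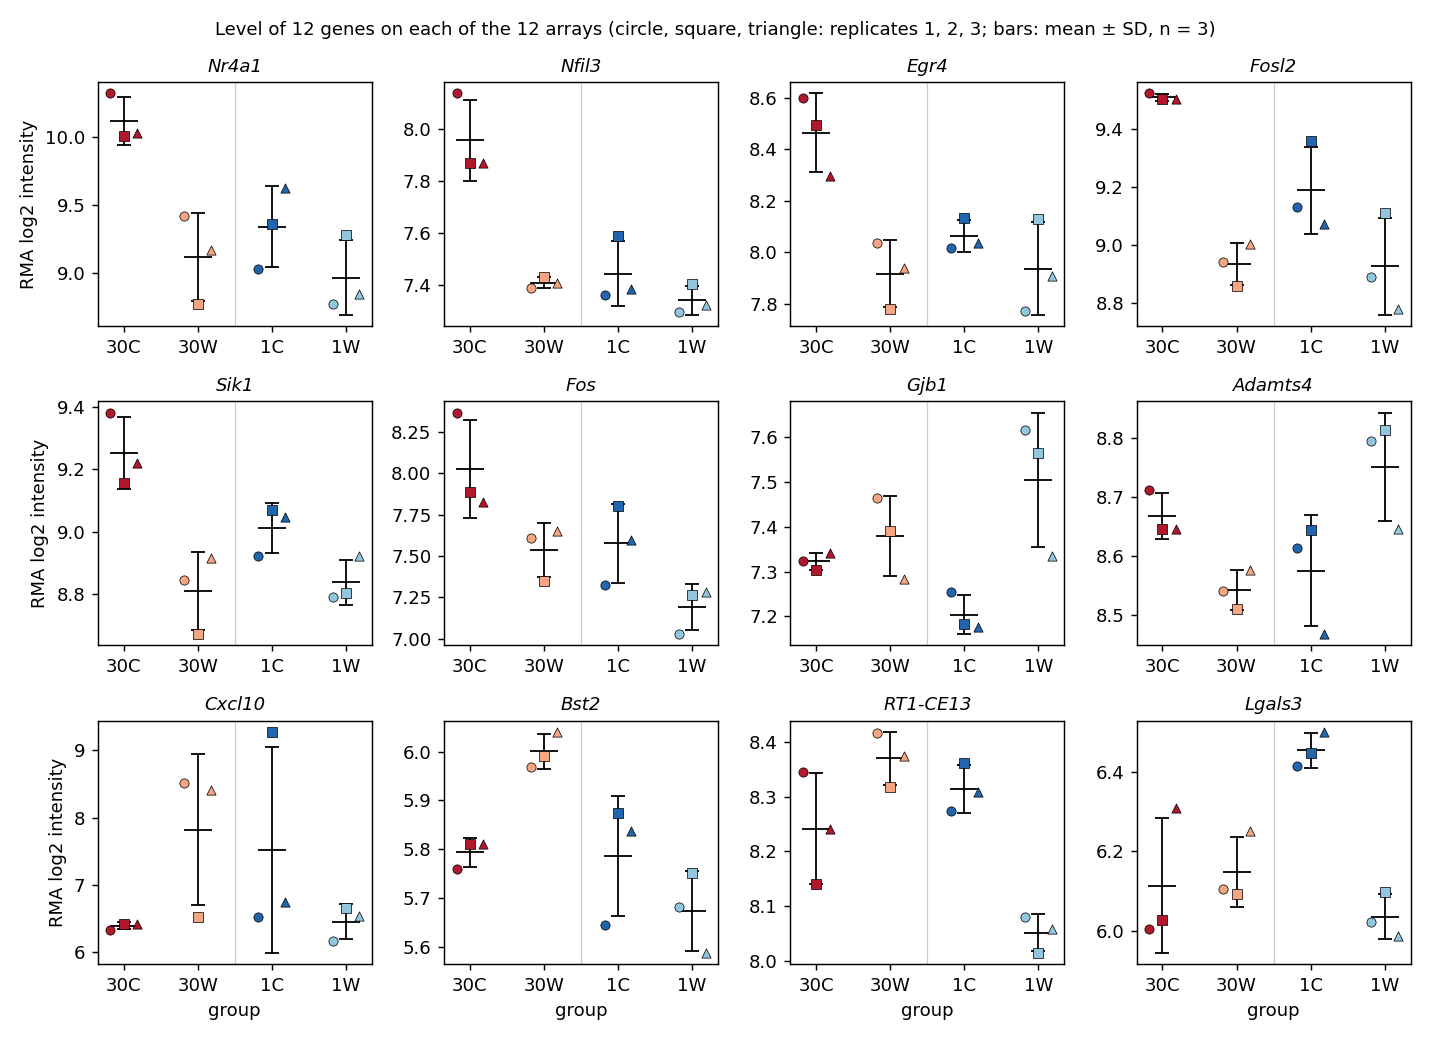
Level in RMA log2 units of 12 genes on each of the 12 arrays, by group (30C, 30W, 1C, 1W), with the replicate number as the symbol and the mean ± SD (n = 3) in black. The 30C arrays of Nr4a1, Nfil3, Egr4 and Fosl2 lie above all other arrays of the same gene, and the high arrays of Cxcl10 are 30W replicates 1 and 3 and 1C replicate 2.

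The share of the list on the positive side moved with 1 array. The list score was 0.39, 0.16 and 0.07 in 30C, against 0.00, -0.18 and -0.04 in 30W, and -0.14, 0.08 and 0.02 in 1C, against -0.16, -0.01 and -0.20 in 1W. The highest value belonged to 30C replicate 1, the array with the high cortical and the low spiny neuron scores. Without it, 20 of the 32 members were above 0 and the list median was 0.07, against 0.00 over all genes. Without both 30C replicate 1 and 1C replicate 2 it was 24 members and 0.12. With the cortical score as a covariate 29 of 32 members were above 0, with a median of 0.12.

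**Figure D4:**
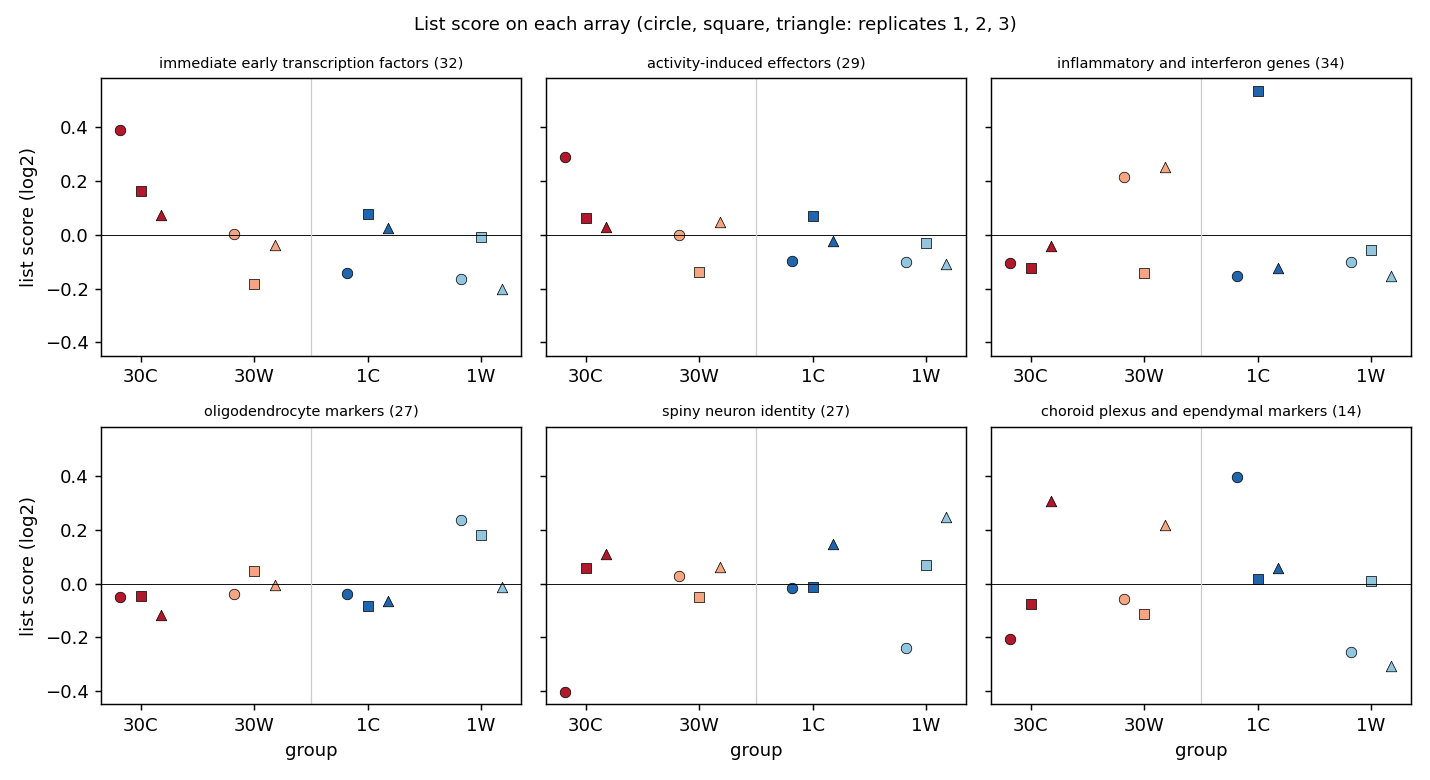
Score of 6 gene lists on each of the 12 arrays, in log2 units (mean deviation of the list's genes from their means), by group with the replicate number as the symbol. The immediate early score is highest on 30C replicate 1 (0.39), the inflammatory score on 1C replicate 2 (0.53), and the spiny neuron score is lowest on 30C replicate 1 (-0.40).

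Promoter sequences are given for genes of this list because most of its members shared a direction. The core of the cAMP response element (TGACG, read on both strands, and part of the full element TGACGTCA) was searched in the 250 bases upstream of each start. RefSeq's rat promoter table (GRCr8) held 22 of the 32 genes tested. This core was found in 13 of these 22 (59.1%), in 2554 of the 9724 tested genes with a promoter (26.3%) and in 5205 of all 27457 promoters (19.0%). The full element was in 3 of the 22, in 2.61% of the tested genes' promoters and in 1.70% of all promoters. These matches describe letters, not bound sites, and the share describes the genes listed, not these arrays. Capitals mark the core on either strand, in Nr4a1 (chr7:134259888-134260137 on the plus strand), Egr4 (chr4:119607818-119608067 on the minus strand) and Nfil3 (chr17:12432126-12432375 on the plus strand).
Nr4a1: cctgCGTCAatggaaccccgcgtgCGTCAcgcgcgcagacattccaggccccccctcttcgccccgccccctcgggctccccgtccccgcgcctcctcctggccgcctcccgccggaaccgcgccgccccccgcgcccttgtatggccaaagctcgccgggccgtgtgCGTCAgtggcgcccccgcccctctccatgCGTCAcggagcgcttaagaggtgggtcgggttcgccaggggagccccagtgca
Egr4: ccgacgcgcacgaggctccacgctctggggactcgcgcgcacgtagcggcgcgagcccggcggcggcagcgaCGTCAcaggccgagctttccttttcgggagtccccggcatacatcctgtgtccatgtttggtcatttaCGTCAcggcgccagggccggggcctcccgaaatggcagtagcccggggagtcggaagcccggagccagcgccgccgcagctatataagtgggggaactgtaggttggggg
Nfil3: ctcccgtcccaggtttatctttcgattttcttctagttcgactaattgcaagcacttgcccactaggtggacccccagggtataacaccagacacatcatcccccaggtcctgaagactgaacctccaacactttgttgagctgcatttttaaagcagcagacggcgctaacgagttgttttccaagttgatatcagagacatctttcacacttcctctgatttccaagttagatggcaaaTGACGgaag

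Nr4a1 held 4 copies of the core, Egr4 held 2 and Nfil3 held 1. These genes were chosen for display, and a relation between copies and the interaction was not tested. The D-box letters TTANNTAA, to which Nfil3 can bind, were in none of the 22 promoters. They were in 3.21% of the tested genes' promoters and in 5.33% of all promoters, too few for a count of none in 22 to be read.

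Activity-induced effector genes lay less far from 0. Of 29 tested, 21 were above 0 (54.0% of all genes were), with a median of 0.09. A positive interaction at an unadjusted p under 0.05 was found in 1 of them and in 1.72% of all genes. Without 30W replicate 2 the median was 0.034 and without 30C replicate 1 it was 0.048, with 0 genes under that p in either limma fit. The 1 gene in the reported fit was Sik1, a salt-inducible kinase that restrains CREB-dependent transcription through its coactivators. It was at 9.38, 9.16 and 9.22 in 30C, against 8.84, 8.67 and 8.92 in 30W, and at 8.92, 9.07 and 9.05 in 1C, against 8.79, 8.80 and 8.92 in 1W. The 30C arrays were above all others, and the 1-day groups met only at 8.92, the lowest 1C and the highest 1W array. The interaction was 0.27 (standard error 0.11, limma unadjusted p = 0.0314). Arc, an endosomal regulator of AMPA receptors, had an interaction of 0.33 with a wider interval, -0.34 to 1.00. Plat, tissue plasminogen activator, chosen after its values were seen, showed nearly equal test effects of 0.31 at 30 days and 0.30 at 1 day. Its interaction was 0.01, with an interval of -0.20 to 0.22.

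Inflammatory and interferon genes were mostly on the negative side. Of 43 listed, 34 were tested and 30 of these had an interaction below 0, where 5422 of all 11778 genes did. The list median was -0.25. The median test effect was -0.09 at 30 days, with 5 genes lower at an unadjusted p under 0.05, where 206 of all 11778 genes were. At 1 day it was 0.11, with no gene under that p in either direction. In the interaction 7 genes had an unadjusted p under 0.05, all negative, where 1.49% of all genes did. These were Cxcl9, Cxcl10, Cxcl11, Gbp5, Isg15, Ifit2 and Bst2, and none passed adjustment. Leaving out 1 array gave between 3 such genes (without 30W replicate 3) and 12 (without 30W replicate 2), with 4 without 30W replicate 1 or 1C replicate 2. Of the 34 genes, 24 were above the filter's percentile on all 15 arrays. Cxcl9 was above it on 3 arrays, Bst2 on 5, Cxcl11 on 7 and Isg15 on 10 of 15, so their place among the tested genes rests on some arrays only and the count of 7 is given as a description. The first 3 encode chemokines that act on CXCR3, and the other 4 are interferon-induced genes.

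Cxcl10 had the most negative interaction of all genes tested, -2.49 with a standard error of 0.93. It was at 6.33, 6.42 and 6.42 in 30C, against 8.51, 6.53 and 8.42 in 30W, and at 6.53, 9.28 and 6.75 in 1C, against 6.16, 6.65 and 6.54 in 1W. The high arrays were 30W replicates 1 and 3 and 1C replicate 2, with the other 9 between 6.16 and 6.75, so that 1C and 1W overlapped. Without 1C replicate 2 the interaction was -1.61, and it was -3.13 without 30W replicate 2.

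The same 3 arrays were high in the related genes. Cxcl9 was at 5.07, 5.23 and 5.28 in 30C, against 6.10, 5.30 and 6.08 in 30W, and at 5.12, 6.12 and 5.43 in 1C, against 5.19, 4.98 and 5.23 in 1W. Gbp5, a guanylate-binding protein, was at 6.78, 6.35 and 6.91 in 30C, against 7.74, 6.61 and 7.40 in 30W, and at 6.63, 7.51 and 6.68 in 1C, against 6.60, 6.66 and 6.41 in 1W. For both genes the remaining arrays of 30W and 1C lay with or close to the 30C and 1W arrays. Ccl2, a monocyte chemokine, stood at 9.75 on 1C replicate 2 and between 5.86 and 6.22 on the other 11 arrays. Its interaction was -1.12, and 0.08 without that array.

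Bst2, an antiviral membrane protein, was spread more evenly. It was at 5.76, 5.81 and 5.81 in 30C, against 5.97, 5.99 and 6.04 in 30W, and at 5.64, 5.87 and 5.84 in 1C, against 5.68, 5.75 and 5.59 in 1W. All 3 arrays of 30C were below all 3 of 30W, and 1C and 1W overlapped. The interaction was -0.32 (standard error 0.09, limma unadjusted p = 0.00438). Bst2 was above the filter's percentile on only 5 of 15 arrays, and its highest arrays were those of 30W, so this p is given as a description. Isg15, a ubiquitin-like interferon product, had an interaction of -0.35 (standard error 0.11), and Ifit2, an RNA-binding interferon product, of -0.31 (standard error 0.12).

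The list score showed the same arrays. It was -0.11, -0.12 and -0.04 in 30C, against 0.21, -0.14 and 0.25 in 30W, and -0.15, 0.53 and -0.12 in 1C, against -0.10, -0.06 and -0.15 in 1W. Without 1C replicate 2, 22 of the 34 genes were below 0 and the median was -0.05. Only 14 of the 34 genes passed a filter at the array median, with 11 below 0, a median of -0.23 and 2 at an unadjusted p under 0.05. The microglia and macrophage list, given because these cells respond to such signals, had a median interaction of 0.02 over 32 genes, and its score was 0.16 on both 1C replicate 2 and 1W replicate 1.

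An interferon-stimulated response element (GAAA, any 2 bases and GAAA again, both strands) was found in 12 of the 27 promoters available for this list (44.4%), in 2.59% of the tested genes' promoters and in 3.29% of all promoters. The list was made of inflammatory and interferon genes, so this share describes the choice of genes and not these arrays. The matches are letters, not bound sites. The element is shown in capitals for Cxcl10 (chr14:15988816-15989065 on the plus strand), the gene with the most negative interaction. It is also shown for Bst2 (chr16:18254968-18255217 on the minus strand), the list's gene with the smallest p. That p is a description only, since Bst2 was above the filter's percentile on only 5 of 15 arrays. The Bst2 promoter holds 2 matches that overlap.
Cxcl10: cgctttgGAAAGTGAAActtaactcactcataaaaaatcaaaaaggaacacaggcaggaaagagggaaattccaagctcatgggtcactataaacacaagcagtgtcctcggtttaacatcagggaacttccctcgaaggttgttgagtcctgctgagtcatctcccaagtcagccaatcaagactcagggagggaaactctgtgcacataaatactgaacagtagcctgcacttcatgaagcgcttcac
Bst2: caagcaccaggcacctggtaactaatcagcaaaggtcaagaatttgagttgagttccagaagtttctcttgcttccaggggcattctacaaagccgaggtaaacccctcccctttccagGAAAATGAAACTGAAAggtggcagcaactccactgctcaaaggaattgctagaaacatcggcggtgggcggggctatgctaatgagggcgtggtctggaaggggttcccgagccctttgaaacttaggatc

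Of the genes with the smallest interaction p over the whole table, Nfil3 is described above. RT1-CE13, a class I major histocompatibility gene, had the smallest, 0.000363 (limma, unadjusted). It was at 8.34, 8.14 and 8.24 in 30C, against 8.42, 8.32 and 8.37 in 30W, and at 8.27, 8.36 and 8.31 in 1C, against 8.08, 8.01 and 8.06 in 1W. The 1W arrays were below all 9 others, the 1C arrays were above every 1W array, and 30C overlapped 30W. The interaction was -0.39 (standard error 0.08), from -0.13 at 30 days and 0.26 at 1 day. Class I genes of the rat RT1 region have close copies, which this probe set may not tell apart.

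Lgals3, the galectin of activated phagocytes, differed mainly at 1 day. It was low on every array, below the array's median over all probe sets (6.89 to 6.97). It was at 6.00, 6.03 and 6.31 in 30C, against 6.10, 6.09 and 6.25 in 30W, and at 6.41, 6.45 and 6.50 in 1C, against 6.02, 6.10 and 5.99 in 1W. The 1C arrays were above all others, and the 30-day groups overlapped. The interaction was -0.45 (standard error 0.11, limma unadjusted p = 0.00164). Csrp2 was within 6.50 to 6.56 in 30C, against 6.84 to 6.91 in 30W, and at 6.66, 6.56 and 6.67 in 1C, against 6.74, 6.66 and 6.68 in 1W. Its 30-day groups were apart and its 1-day groups overlapped, with an interaction of -0.30 (standard error 0.07).

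Among the 12 negative genes named by smallest p, Cybrd1, a ferric reductase, had an interaction of -0.31 and Kpna4, an importin alpha, of -0.34. In both the test effects were opposite at the 2 times, each at an unadjusted p under 0.05. For Cybrd1 they were -0.17 at 30 days and 0.13 at 1 day, and for Kpna4 -0.16 and 0.18. Casp1, the inflammasome protease, was of the same kind, with -0.25 at 30 days and 0.23 at 1 day.

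On the positive side the smallest p belonged to Pgls, which encodes 6-phosphogluconolactonase of the pentose phosphate pathway. It was at 7.73, 7.70 and 7.70 in 30C, against 7.42, 7.57 and 7.54 in 30W, and at 7.55, 7.54 and 7.53 in 1C, against 7.62 on all 3 arrays of 1W. The 30C arrays were above 30W and the 1C arrays below 1W, with an interaction of 0.28 (standard error 0.06, limma unadjusted p = 0.000874). The 3 values of 1W are equal to the last deposited digit. Such equal values within a group occur for at least 2 arrays in 1362 of the 11778 genes, and for all 3 in 95, which narrows their estimated spread.

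Usp30, a mitochondrial deubiquitinase, was at 9.17, 9.14 and 9.10 in 30C, against 9.02, 8.96 and 9.02 in 30W, and at 9.13, 9.06 and 9.08 in 1C, against 9.21, 9.24 and 9.16 in 1W. Neither pair of groups overlapped, and the test effects were 0.14 at 30 days and -0.11 at 1 day. Nagk, N-acetylglucosamine kinase, had effects of 0.17 and -0.17 and an interaction of 0.34. Insc, an adaptor of spindle orientation, had an interaction of 0.30. The 12 genes so named in the positive direction had interactions of 0.24 to 0.45, and the 12 in the negative direction had sizes of 0.24 to 0.48.

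Oligodendrocyte markers were nearly all above 0. Of 27 tested, 26 were, against 54.0% of all genes, with a median of 0.10. Of these markers 3 had a positive interaction at an unadjusted p under 0.05, where 1.72% of all genes did. Here the difference came with lower levels in 1C than in 1W, where the median effect was -0.19 and no gene was above 0. Of the 27 markers 19 were lower in 1C at an unadjusted p under 0.05 (2.09% of all genes were). The group that stood apart was the untested 1W, with a mean list score of 0.13 (SD 0.13). The means were -0.06 in 1C, -0.07 in 30C and 0.0006 in 30W. At 30 days the median was -0.10 and none passed that level. Gjb1, the connexin of myelinating cells, was at 7.32, 7.30 and 7.34 in 30C, against 7.46, 7.39 and 7.28 in 30W, and at 7.25, 7.18 and 7.18 in 1C, against 7.62, 7.56 and 7.33 in 1W. The 1C arrays were below all others and the 30-day groups overlapped. Adamts4, a protease expressed in oligodendrocytes, had an interaction of 0.30 (standard error 0.08, limma unadjusted p = 0.00409), and Ugt8, which makes galactocerebroside for myelin, of 0.27 (standard error 0.10).

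The oligodendrocyte score was -0.05, -0.05 and -0.12 in 30C, against -0.04, 0.04 and -0.005 in 30W, and -0.04, -0.08 and -0.06 in 1C, against 0.23, 0.18 and -0.01 in 1W. The 2 high arrays were 1W replicates 1 and 2, in untested rats. Without 1W replicate 1, 21 of 27 markers were above 0 and the median interaction was 0.04. The 3 markers at an unadjusted p under 0.05 became 1 without 1W replicate 1, 1W replicate 2 or 1C replicate 2, and 11 without 1W replicate 3. Oligodendrocyte precursor markers had a median interaction of 0.00 over 13 genes. At 1 day 4 of these were lower after the test at an unadjusted p under 0.05, where 2.09% of all genes were. Their score in 1W was 0.09, 0.11 and 0.02.

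Spiny neuron identity genes had 23 of 27 members below 0, where 5422 of all 11778 genes were. Their median was -0.11 and none had an unadjusted p under 0.05. Drd1, the D1 dopamine receptor, was at 9.54, 10.20 and 10.16 in 30C, against 10.16, 10.09 and 10.24 in 30W, and at 10.10, 9.99 and 10.17 in 1C, against 9.68, 10.11 and 10.31 in 1W. The low arrays were 30C replicate 1 and 1W replicate 1, and the groups overlapped at both times. The sign of the list turned when 1 array was left out. It had 5 members below 0 and a median of 0.04 without 30C replicate 1, and 10 members and 0.03 without 1W replicate 1. Drd2, the D2 receptor, had an interaction of -0.10 with an interval of -0.60 to 0.39, and 0.08 without 30C replicate 1.

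Choroid plexus and ependymal markers had 11 of 14 members below 0, where 5422 of all 11778 genes were, and a median of -0.21. None had an unadjusted p under 0.05, or up to 5 when 1 array was left out (without 1W replicate 2). The median test effect was 0.04 at 30 days, with none under that p. At 1 day it was 0.22, with 13 of 14 above 0, 6 higher at an unadjusted p under 0.05 (2.06% of all genes were) and 1 lower. Only 14 of the 22 listed passed the filter. Cfap126, a gene of motile cilia, was at 7.62, 7.97 and 8.57 in 30C, against 8.49, 7.78 and 7.48 in 30W, and at 8.91, 8.41 and 9.03 in 1C, against 7.22, 8.50 and 7.25 in 1W. The groups overlapped at both times. Ttr, the transthyretin of choroid plexus, reached 8.83 on 30C replicate 3, 10.20 on 30W replicate 3 and 8.84 on 1C replicate 1, with the other 9 arrays between 5.55 and 6.79. The list score moved with these arrays, at 0.31, 0.22 and 0.40. Zmynd10, a factor of cilium assembly picked after its values were seen, had an interaction of -0.66 (standard error 0.19, limma unadjusted p = 0.00507). The part of the choroid plexus and ependymal markers in this value was not tested.

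**Figure D5:**
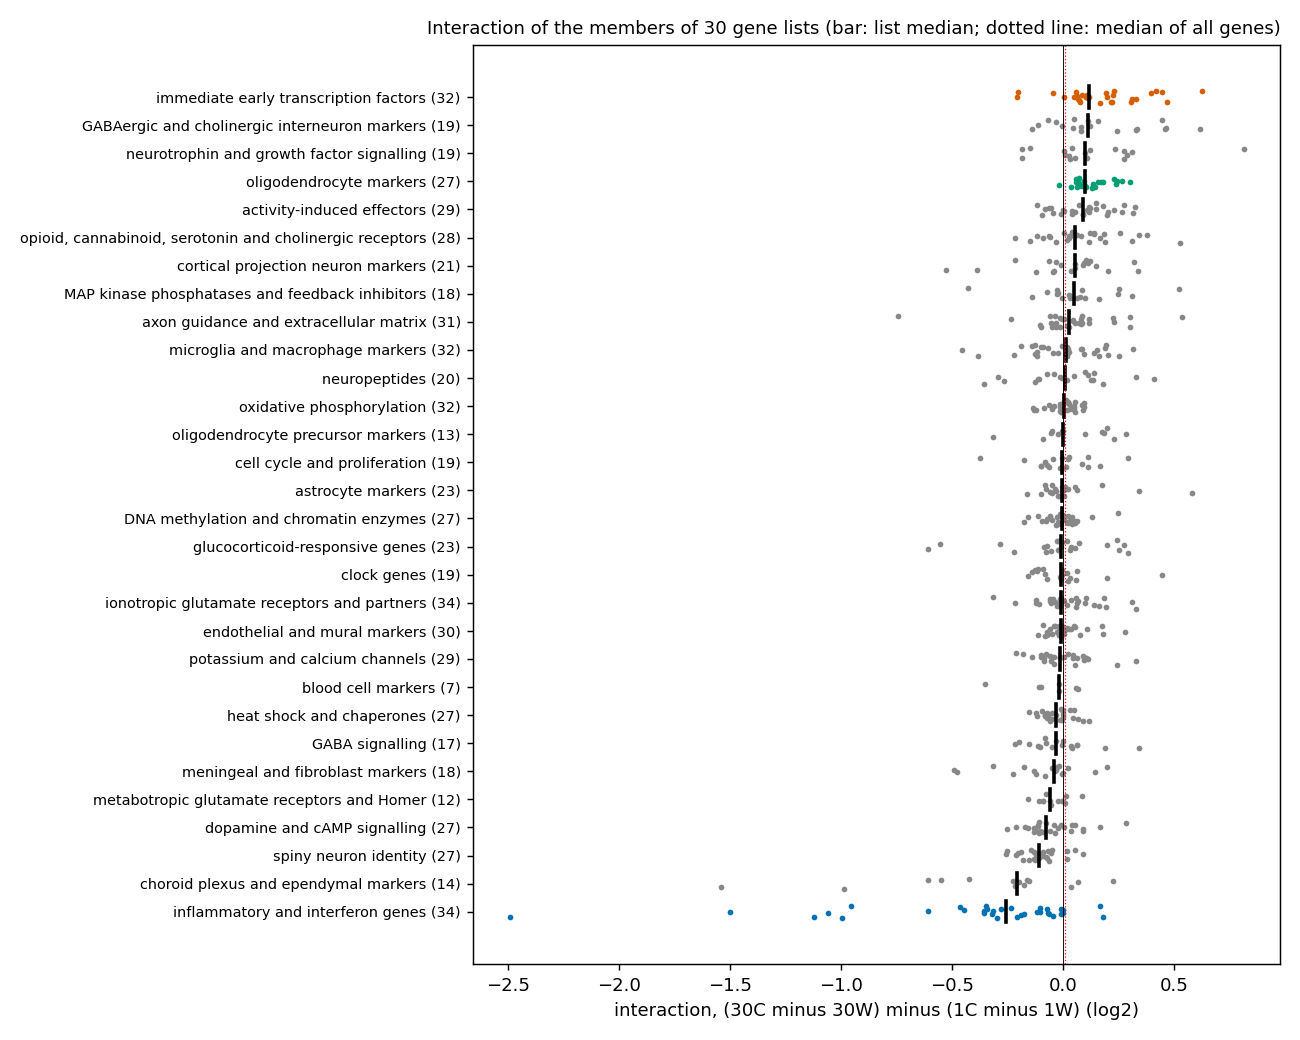
Interaction in log2 units of each tested member (points) of 30 gene lists, sorted by list median (black bar), with the number of members in brackets and the median of all genes as a dotted line. Immediate early transcription factors have the highest median (0.12) and inflammatory and interferon genes the lowest (-0.25).

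Neurotrophin and growth factor genes had 16 of 19 members above 0, a median of 0.10 and 2 with a positive interaction at an unadjusted p under 0.05, against 54.0% and 1.72% of all genes. Ngfr, the p75 neurotrophin receptor, had the largest positive interaction of all genes tested, 0.82 with a standard error of 0.32. It was at 6.99, 7.20 and 7.59 in 30C, against 6.68, 6.74 and 6.72 in 30W, and at 6.92, 6.82 and 6.57 in 1C, against 7.64, 6.61 and 6.84 in 1W. The 30-day groups were apart, the 1-day groups overlapped, and 1W replicate 1 was the highest array of all. The interaction was 0.51 without that array and 1.03 without 1W replicate 2. Nrg1, a ligand of ErbB receptors, had an interaction of 0.24 (standard error 0.09). Markers of GABAergic and cholinergic interneurons had 14 of 19 members above 0, against 54.0% of all genes, and a median of 0.11. Slc18a3, the vesicular acetylcholine transporter, had 0.62 (standard error 0.27), and the cholinergic factor Lhx8, named after its values were seen, 0.46 (standard error 0.32), and 0.19 without 1W replicate 1. The interneuron score was 0.26 on 1W replicate 1 and between -0.11 and 0.07 on the other arrays.

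The 6 lists of synaptic receptors, signalling and chromatin enzymes held 2 genes at an unadjusted p under 0.05, where 378 of all 11778 genes had one. Over all genes 6356 were above 0 and 5422 below. Ionotropic glutamate receptors and their partners had a median of -0.01 over 34 genes, and 1 of them, the AMPA receptor auxiliary subunit Cacng2, had an unadjusted p under 0.05, with an interaction of 0.33. The AMPA subunits Gria1 and Gria2 had interactions of -0.11 (95% interval -0.28 to 0.07) and -0.12 (-0.27 to 0.02). Metabotropic glutamate receptors and Homer genes had 9 of 12 members below 0 and a median of -0.06. Dopamine and cAMP signalling had 19 of 27 below 0 and a median of -0.07, and GABA signalling 10 of 17 and -0.03. Opioid, cannabinoid, serotonin and cholinergic receptors had 21 of 28 above 0 and a median of 0.06. No gene of these 4 lists had an unadjusted p under 0.05 in limma. DNA methylation and chromatin enzymes had a median of -0.01 over 27 genes. The 1 gene of that list under 0.05 was Kdm6b, an H3K27 demethylase, at 8.33, 8.36 and 8.26 in 30C, against 8.10, 8.04 and 8.15 in 30W, and at 8.15, 8.04 and 8.15 in 1C, against 8.10, 8.20 and 8.13 in 1W. Its 30C arrays were above all others, the 1-day groups overlapped, and the interaction was 0.25 (standard error 0.07, limma unadjusted p = 0.00461).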

How the data were processed

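Values are RMA log2 intensities of 28826 probe sets on 15 arrays, as deposited; RMA is named in the submitters' processing notes, and per the labels' protocols biotin-labelled cDNA was made from nucleus accumbens RNA with a 3' IVT kit. For genome build, scan batches and other settings, the sources used here give nothing. Probe sets with 1 gene symbol in the platform annotation numbered 15209 (306 had several and 13311 none), and 15178 were matched to RefSeq. The probe set with the highest mean stood for each of 494 genes with several, leaving 14497 genes, of which 11778 were above the array's 30th percentile on at least 3 arrays. The 12 arrays were fitted in limma 3.58.1 (R 4.3.3) with 1 mean per group and moderated variances (8 residual and 3.38 prior degrees of freedom). Tests were two-sided, and p-values were adjusted by Benjamini-Hochberg over all genes tested, with a threshold of 0.05; the script was tested on simulated data. The number of arrays limits the precision.

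Genes were named by rule: all past the threshold, otherwise the 12 per direction with the smallest p, up to 2 per list and direction, up to 6 with opposite test effects, and 27 fixed genes, of which 26 were measured. Ier2, Klf2, Nr4a2, Plat, Cxcl10, Cxcl11, Gbp5, Isg15, Ifit2, Ccl2, Casp1, Gjb1, Ttr, Lhx8 and Zmynd10 fall outside it and were picked after their values were seen. The comparison, the gene lists and the tests were chosen with earlier results of these data known. Alternatives covered the filter, probe sets, normalization, variance model, array weights, a replicate block, a cortical covariate and arrays left out; their use on gene lists and on all probe sets was chosen after seeing the data.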

Additional observations from a re-analysis of the deposited data

How the results depend on the processing

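The interaction gave 0 genes past an adjusted p of 0.05 in limma under every alternative run, with 378 at an unadjusted p under 0.05 in the reported fit, and 0 also over all 28826 probe sets, where 1116 had such a p. With the replicate block it gave 0 genes, and 246 positive and 214 negative genes at an unadjusted p under 0.05. After the group means were taken off, correlations of 18 same-numbered pairs of arrays ran from -0.22 to 0.51. Their median was 0.07, and 8 were over 0.1. For 36 pairs of different number they ran from -0.51 to 0.35, with a median of -0.02 and 9 over 0.1. Of 12 arrays, 7 correlated best with their own number, where 18 of the pairs compared had the same number and 36 did not. Whether the numbers stand for a pairing was not tested. The test effect at 30 days gave 1 gene with array weights (Csrp2, adjusted p = 0.0326, limma), 1 with the cortical covariate (Nfil3, adjusted p = 0.0106, limma), 1 without both 30C replicate 1 and 1C replicate 2 (Nfil3, adjusted p = 0.0435, limma) and 1 at an adjusted p under 0.10 (Csrp2). With the filter at the array median, negative genes at an unadjusted p under 0.05 numbered 79, inflammatory genes below 0 numbered 11, and choroid plexus and ependymal genes below 0 numbered 5, with fewer genes tested. Leaving out 1 array at a time gave 0 genes past the threshold for the interaction and for either test effect in each of the 12 fits, with 154 to 300 positive and 150 to 256 negative genes at an unadjusted p under 0.05. In the same way 20 to 30 immediate early factors, 17 to 23 effectors and 21 to 27 oligodendrocyte markers were above 0, and 22 to 32 inflammatory, 5 to 26 spiny neuron and 11 to 12 choroid plexus and ependymal genes were below 0. Spiny neuron genes below 0 numbered 10 without 1W replicate 1, 5 without 30C replicate 1 and 7 without both 30C replicate 1 and 1C replicate 2. Signs turned for 6 of the genes whose interaction is given. Leaving out 1 array gave -0.065 to 0.22 for Fos, -0.48 to 0.30 for Npas4, -0.042 to 0.074 for Plat, -1.75 to 0.08 for Ccl2, -0.21 to 0.079 for Drd2 and -0.36 to 1.15 for Nr4a2. Plat was at -0.013 with further quantile normalization and -0.027 with array weights, and Drd2 at 0.039 with array weights. Without both named arrays Plat was at -0.00068, Ccl2 at 0.10, Drd2 at 0.06 and Nr4a2 at -0.11. Where arrays or genes were not left out, the cause was not tested. The arrays bound most interactions within 0.5, but give wide intervals for genes that vary between arrays of a group.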
